A study of Mus musculus with 44 samples.

Results

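White adipose tissue of mice without a functional Surf1 gene (KO) was compared with white adipose tissue of wild-type mice (WT). The comparison was formed by the sample titles, which name 6 KO and 6 WT fat samples among the 44 arrays of the series. The other arrays held liver and brain cortex, with 16 arrays each. All animals were labelled as female mice of the strain B6D2F1/J aged 8 to 12 months. The KO group was Surf1-/-, the WT group Surf1+/+, and no other allele or treatment is labelled. Total RNA of the whole tissue was hybridised to Illumina beadchips, on which each probe is a bead type and its signal the brightness of its beads. The fat depot is not named in the labels, and in such whole tissue fewer cells of a type and less RNA per cell cannot be told apart. Each title ends in a number, from Fat_WT_135 to Fat_WT_165 and from Fat_Surf1_KO_164 to Fat_Surf1_KO_241, so KO numbers were nearly all the higher ones. Nothing in the labels says whether the 12 samples came from separate animals, so p-values measure the spread between these samples.

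SURF1 is a protein of the inner mitochondrial membrane that helps to assemble cytochrome c oxidase, complex IV of the respiratory chain. Complex IV passes electrons to oxygen at the end of the chain and pumps protons for ATP synthesis. In humans, loss of SURF1 is a known cause of Leigh syndrome, a disease of the brain in infancy. White adipose tissue stores triglyceride in adipocytes and also holds blood vessels, preadipocytes and immune cells. The question was which transcripts of this tissue differ in mice that lack this assembly factor.

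The results are given by probe identifier alone, because the deposited identifiers did not follow tissue. Of 10 probes that the platform annotation pairs with adipocyte genes, 7 were detected in fat and 0 were over 1 log2 higher there than in liver and brain, where 5.11% of all probes were. The values themselves did separate the tissues. The lowest correlation between fat arrays was 0.964 and the highest between a fat array and a liver or brain array was 0.806. Of the 60 brightest liver probes that no brain array detected, 26 were undetected on all 12 fat arrays, and their median normalized level was 4.69 in WT and 4.70 in KO fat. Of the 60 brightest brain probes that no liver array detected, 10 were undetected and 21 detected on all 12 fat arrays, and their median was 4.94 in WT and 5.20 in KO fat, with array medians of 4.87 to 5.61. The part of this difference in the results was not tested. The 2 probes annotated to Surf1 were detected on 0 of 12 fat arrays, so they check no genotype. Under the deposited names, 1 of 13 hepatocyte, 0 of 10 neuron, 0 of 8 macrophage, 0 of 5 mammary epithelium, 0 of 8 skeletal muscle, 0 of 4 B cell and 1 of 5 endothelium probes were that much higher in fat. None of these probes passed the test below, and because the names are not usable the cell makeup of the samples was not tested.

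The 12 fat arrays were alike in brightness. The detected share was 49.2% ± 1.27 (SD, n = 6) of 25697 probes in WT and 48.9% ± 1.66 (SD, n = 6) in KO. The difference of -0.24 percentage points was within the spread (exact permutation test over arrays, two-sided p = 0.775). Median signals ranged from 111.8 to 133.8, and their log2 means differed by -0.06 (exact permutation test, two-sided p = 0.162). A probe was tested if it was detected on at least 6 of the 12 arrays, which left 12468 probes.

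Few probes differed past the threshold, and most of those that did were lower in KO. With limma, 5 of 12468 probes (0.0401%) had a Benjamini-Hochberg adjusted p under 0.05, of which 4 (0.0321% of those tested) were lower and 1 (0.00802%) was higher in KO. A far larger number had an adjusted p under 0.1: 161 probes, these 5 included, with 100 of the 161 lower. Before adjustment, 1821 probes (14.6%) had a p under 0.05, 984 lower and 837 higher, where a share of 0.05 of those tested would be 623. The typical difference was small, with a median absolute difference of 0.15 log2 and a median standard error of 0.16. Larger differences ran mainly 1 way: of the 1.08% of probes that differed by over 1 log2, 114 were lower and 21 higher in KO.

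**Figure D1:**
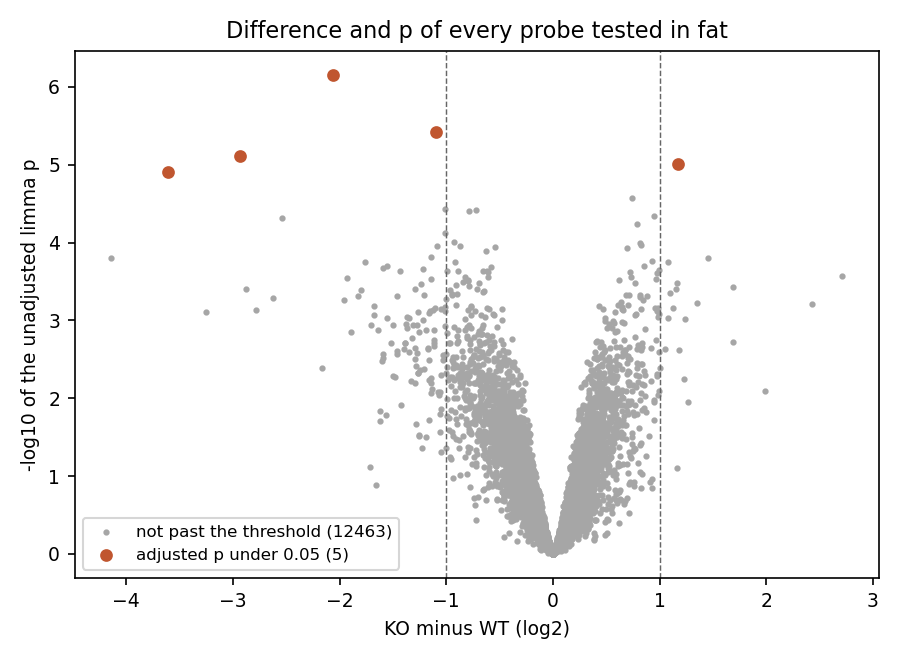
Each point is a probe tested in fat, with the KO minus WT difference in log2 on the x axis and -log10 of the unadjusted limma p on the y axis. The 5 probes with an adjusted p under 0.05 are drawn large, and the dashed lines mark 1 log2; 114 probes lie beyond the left line and 21 beyond the right.

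The probe with the smallest p was ILMN_2629657, which was clearly on in WT fat and close to background in KO fat. Its normalized log2 level in WT had a lowest value of 6.63, a median of 6.95 and a highest value of 7.90, and in KO these were 4.77, 4.84 and 5.97. All 6 KO arrays therefore lay below every WT array, and the KO array nearest to WT was Fat_Surf1_KO_237. The means were 7.13 ± 0.56 (SD, n = 6) in WT and 5.07 ± 0.47 (SD, n = 6) in KO, a difference of -2.06 log2 (SE 0.26). Its limma adjusted p was 0.00871. It was detected on 6 of 6 WT arrays and 2 of 6 KO arrays, so the KO level lies at the limit of the array and no fold is given. With uncorrected signals the difference was -0.93 (limma adjusted p = 0.0141), and in the values processed by the authors it was -0.84 (limma adjusted p = 0.0174). When any 1 of the 12 arrays was left out it stayed past the threshold, with adjusted p values up to 0.0461. Its detection on the WT arrays alone sufficed for it to be tested. It was not tested with detection required on every fat array, nor with a single probe per deposited name.

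ILMN_1243722 was among the brightest probes of fat, above 95.9% of tested probes. On WT arrays its log2 level was 11.51 at the lowest, 12.19 at the median and 12.46 at the highest, and on KO arrays it was 10.57, 10.98 and 11.36. The groups did not overlap, although the gap between them was only from 11.36 on Fat_Surf1_KO_231 to 11.51 on Fat_WT_136. The means were 12.08 ± 0.34 (SD, n = 6) and 10.98 ± 0.26 (SD, n = 6), a difference of -1.10 (SE 0.16, limma adjusted p = 0.0235), or 2.14-fold lower in KO. Far above background, its difference hardly moved without background correction, at -1.06.

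ILMN_2721357 showed a wider range in KO than in WT. Its log2 level ran from 7.82 through a median of 9.27 to 9.77 in WT, and from 4.78 through 6.14 to 7.46 in KO. The groups did not overlap. Fat_Surf1_KO_232, Fat_Surf1_KO_175 and Fat_Surf1_KO_237 were the low KO arrays, at 4.78, 5.27 and 5.38, and the other 3 stood at 6.89 to 7.46. KO minus WT was -2.94 (SE 0.45, limma adjusted p = 0.0307), and -1.90 without background correction. No fold is given, because the 3 low KO arrays lay near background. The deposited signals were 316.2 to 1072.4 in WT and 114.5 to 227.9 in KO, where array medians lay between 111.8 and 133.8, and the probe was detected on 5 of 6 KO arrays.

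ILMN_2431046 had the largest difference of the probes past the threshold, and also the least even WT group. Fat_WT_138, Fat_WT_139, Fat_WT_148 and Fat_WT_165 stood close together at 11.73, 11.98, 11.81 and 11.73, while Fat_WT_135 stood at 9.88 and Fat_WT_136 at 7.82. The KO arrays lay between 6.43 and 7.87, so Fat_WT_136 was inside the KO range and 5 of 6 KO arrays lay below every WT array. The means were 10.82 ± 1.66 (SD, n = 6) in WT and 7.22 ± 0.55 (SD, n = 6) in KO, a difference of -3.61 (SE 0.58, limma adjusted p = 0.0314), or 12.2-fold lower. The call ended with uncorrected signals (-3.02, limma adjusted p = 0.0581) and in the values processed by the authors (-2.95, limma adjusted p = 0.0588).

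The only probe past the threshold that was higher in KO was ILMN_1240702. Its log2 level was 5.79 at the lowest, 6.50 at the median and 6.97 at the highest in WT, against 7.47, 7.69 and 7.92 in KO. Here the KO group was the tighter, with an SD of 0.16 against 0.44 in WT, and no array of a genotype reached the other. KO minus WT was 1.17 (SE 0.18, limma adjusted p = 0.0307), or 2.26-fold higher, and 0.69 without background correction. Fat_WT_135 and Fat_WT_136 stood at 6.55 and 6.96, among the other WT values.

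Leaving out single arrays ended most of these calls but not that of ILMN_2629657. Over the 12 fits that each left out 1 array, ILMN_1243722 and ILMN_1240702 each passed in 5, ILMN_2721357 in 4 and ILMN_2431046 in 3. The highest adjusted p was 0.0888 for ILMN_1243722, 0.116 for ILMN_1240702, 0.109 for ILMN_2721357 and 0.116 for ILMN_2431046. Once genotype means were taken out, ILMN_2431046 followed ILMN_1243722 over the 12 arrays with a correlation of 0.84 and ILMN_2721357 with 0.73, while ILMN_2629657 followed these 3 at 0.04 to 0.29. These are descriptions over arrays that share the same normalization. With the title number as a covariate none of the 5 passed, at limma adjusted p values of 0.303 to 0.514, while all 5 differences kept their sign; the fit over 44 arrays, which shares its estimate of spread with liver and brain, called 354 probes.

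**Figure D2:**
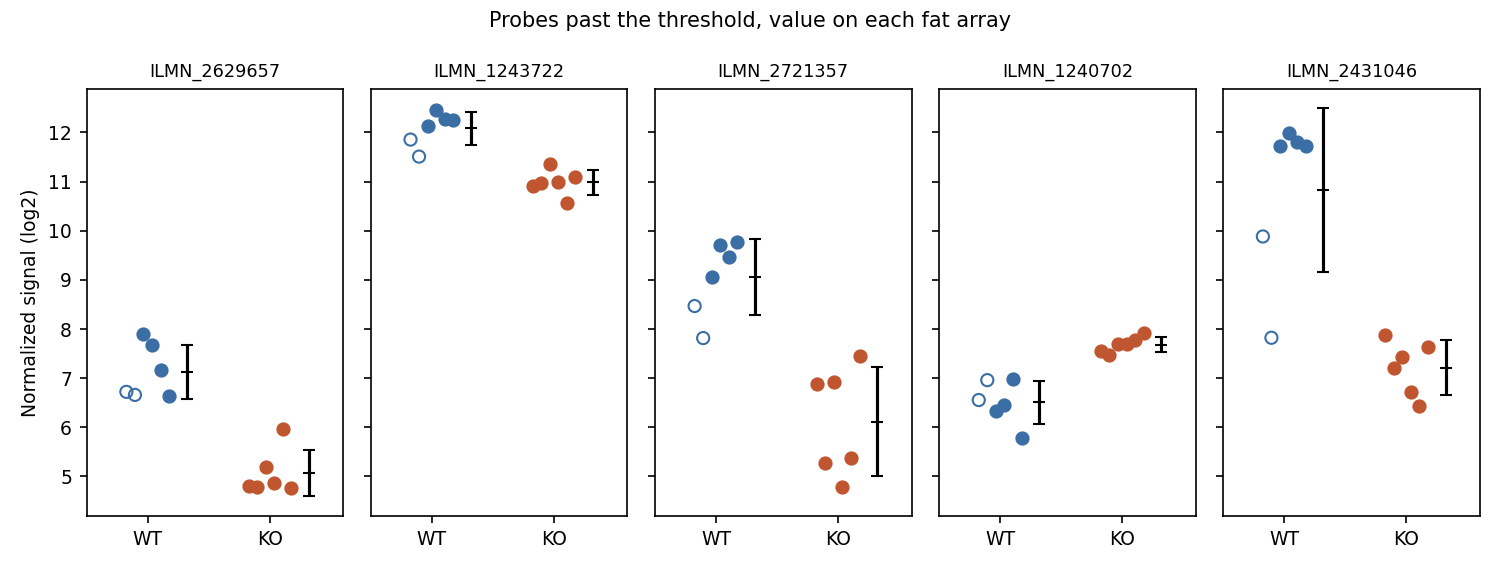
Normalized log2 signal on each fat array for the 5 probes past the threshold, WT in blue and KO in orange, with bars for the mean and SD of the 6 arrays. Open circles mark Fat_WT_135 and Fat_WT_136, which are the WT arrays nearest to KO in ILMN_1243722, ILMN_2721357 and ILMN_2431046. Nearer to KO than either are Fat_WT_165 in ILMN_2629657 and Fat_WT_148 in ILMN_1240702.

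The probes next in line in each direction did not pass, and are given as values. They were chosen by small p on these arrays, which favours groups that do not overlap. Of all tested probes, 0.77% had such groups. ILMN_2420538 was 0.74 log2 higher in KO (SE 0.13, limma adjusted p = 0.0542), with WT values of 11.10 to 11.75 and KO values of 11.82 to 12.33. ILMN_1248959 differed by 0.94 (SE 0.17), from 5.12 to 5.84 in WT and from 6.06 to 6.97 in KO. Neither pair of ranges overlapped. ILMN_2606804 and ILMN_2589107 also had 6 of 6 KO arrays above every WT array, with differences of 0.70 and 0.82. ILMN_2645263, ILMN_2920549 and ILMN_2654651 had 5 of 6, with differences of 0.79, 0.83 and 1.45. ILMN_2654651 was the brightest of these, with a median of 11.27 in WT and 12.48 in KO, and its highest value was 13.86 on Fat_Surf1_KO_175.

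On the lower side, ILMN_2759177 differed by -1.02 (SE 0.18, limma adjusted p = 0.0542), with 7.21 to 8.33 in WT and 6.51 to 6.99 in KO. ILMN_1216723 and ILMN_2614655 differed by -0.72 and -0.79, and their groups did not overlap either. The values of ILMN_2614655 were tight in KO, at 5.27 to 5.56 (SD 0.10), against 5.77 to 6.42 in WT. ILMN_1240943 had a larger but looser difference of -2.54 (SE 0.46, limma adjusted p = 0.0542). Its levels were 8.10 to 10.18 in WT and 5.59 to 8.40 in KO, and the WT arrays nearest to KO were Fat_WT_136 at 8.10 and Fat_WT_135 at 8.81.

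Across all tested probes, 96 (0.77%) had KO and WT arrays that did not overlap, 49 higher and 47 lower in KO. Their median absolute difference was 0.59 log2, so complete separation mostly came with modest differences. Of these 96, 10 differed by over 1 log2, against 1.08% of all tested probes. Differences of that size were thus more frequent among probes without overlap than among probes at large, which was not tested. Most probes over 1 log2 still had overlapping groups, as did nearly all tested probes, so overlap was not particular to large differences.

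Detection in only 1 genotype was rare. ILMN_1243340 was detected on 6 of 6 WT and 0 of 6 KO arrays, at 5.59 ± 0.43 (SD, n = 6) against 4.79 ± 0.11 (SD, n = 6). Because the KO level is only a bound, its difference is given as at least 1.44-fold lower in KO, set against the lowest signal of a detected probe on each KO array. ILMN_2899133 was detected on 6 of 6 KO and 0 of 6 WT arrays, at 5.27 against 4.85, and by the same bound was at least 1.16-fold higher in KO. Both were chosen for this pattern and entered the fit through the genotype in which they were detected, so their values are a description with no test, and neither was among the 5 probes past the threshold. Both lay near the floor of the arrays, above only 6.07% and 1.18% of tested probes.

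The 114 probes that were over 1 log2 lower in KO were more often restricted in tissue than probes at large. They were detected in liver and brain in 34.2% of cases, where 72.8% of all tested probes were, and in neither in 27.2%, where 8.18% of all were. In 43% the fat level was over 1 log2 above both other tissues, against 10.5% of all tested probes. They were also uneven: their median SD was 0.93 log2 among WT arrays and 0.42 among KO arrays, where the medians over all tested probes were 0.27 and 0.25. Of the 21 probes over 1 log2 higher in KO, 10 (47.6%) were detected in both other tissues and 6 (28.6%) in liver only, where 7.82% of all tested probes were in liver only. Of these 21, 14.3% were detected in neither, and in 28.6% the fat level was over 1 log2 above both other tissues. Their median SDs were 0.635 among WT and 0.546 among KO arrays, so these traits were not particular to the lower probes. Both sets were chosen by the size of the difference, so these shares describe them and were not tested.

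WT fat was not a homogeneous group. The first principal component, computed without genotype, held 30.6% of the variance of the 12 arrays. Fat_WT_138, Fat_WT_139, Fat_WT_165 and Fat_WT_148 had scores of -33.6, -31.2, -30.6 and -21.9. The KO arrays had scores of 5.44 on Fat_Surf1_KO_231 to 24.2 on Fat_Surf1_KO_232. Fat_WT_135 at 7.54 and Fat_WT_136 at 16.1 lay within that KO range. The means were -15.6 ± 21.8 (SD, n = 6) in WT and 15.6 ± 6.83 (SD, n = 6) in KO, which differed by 31.3. The place of the 12 arrays on this component was known when the comparison was chosen, so the difference is a description and no test is given. On the second component, with 13.8% of the variance, Fat_Surf1_KO_237 stood apart at 41.2 while the other arrays had scores of -13.6 to 12.0, and the genotypes differed by 6.56 (exact permutation test, two-sided p = 0.584).

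**Figure D3:**
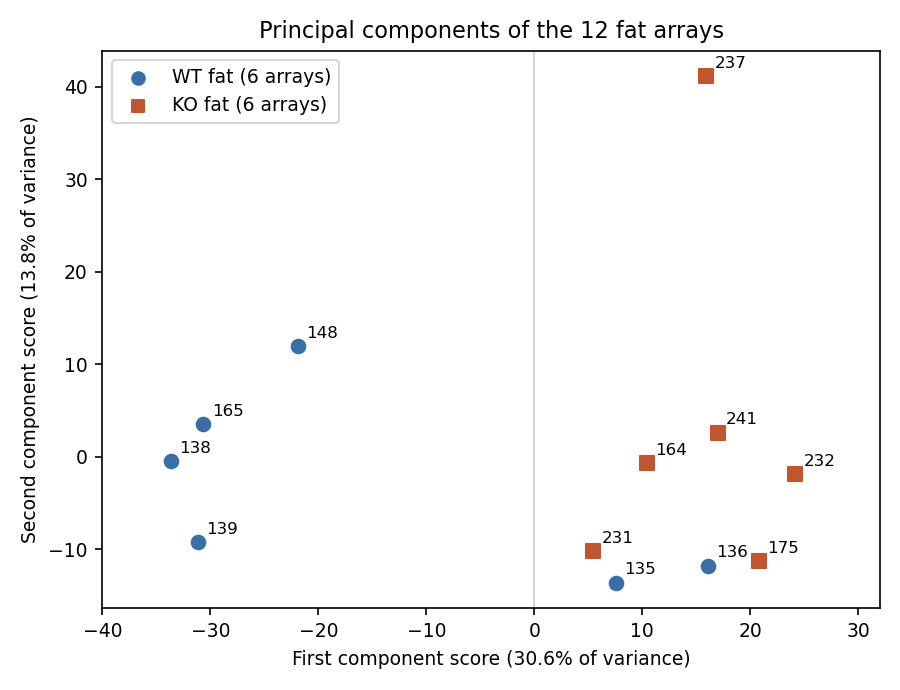
Scores of the 12 fat arrays on the first and second principal components (percent of variance on the axes), with WT as circles and KO as squares, labelled by sample number. Fat_WT_135 and Fat_WT_136 lie among the KO arrays, the other 4 WT arrays lie at -33.6 to -21.9, and Fat_Surf1_KO_237 stands alone at 41.2 on the second component.

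Fat_WT_135 had the highest median signal of the 12 arrays, 133.8, and a detected share of 49.7%, and Fat_WT_136 had 124.4 and 48.4%. The other WT arrays ranged from 114.6 to 132.9 and from 47.8% to 50.9%. Their title numbers were the lowest of the 12, farther from most KO numbers than those of the other WT arrays.

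The pairs of arrays describe this split from the same values as the first component, so they are no separate support for it. After each probe was centred on its mean over the 12 arrays, Fat_WT_135 and Fat_WT_136 were nearest to each other (r = 0.28 over 12468 probes). The median correlation of Fat_WT_136 with the other WT arrays was -0.34 and with KO arrays 0.05. Fat_WT_138 and Fat_WT_148 correlated at 0.48, the highest of the 15 WT pairs, whose median was -0.07. Among the 15 KO pairs the values ran from -0.17 to 0.31, with a median of 0.01, and Fat_Surf1_KO_231 was nearest to Fat_WT_135 (0.16). By root mean square distance, Fat_WT_135 lay 0.30 log2 from the KO mean and 0.36 from the mean of the other WT arrays, and Fat_WT_136 lay 0.30 and 0.42. For the 4 other WT arrays the distance to KO was 0.44 to 0.52 and that to WT 0.35 to 0.42.

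Both arrays sided with KO at most of the large differences but not at all of them. The probes were chosen by the difference on these same arrays, and the place of both arrays was known beforehand. The counts therefore describe the split and are no separate support for it. Of the 114 lower and 21 higher probes that differed by over 1 log2, Fat_WT_136 lay nearer the KO mean at 107 and Fat_WT_135 at 84. The other WT arrays did so at 1 to 5 probes. The KO arrays lay nearer their own mean at 104 on Fat_Surf1_KO_231 to 130 on Fat_Surf1_KO_232. Over the 114 lower probes the median level was 8.04 to 8.66 on the 4 other WT arrays, 7.13 on Fat_WT_135 and 6.62 on Fat_WT_136, and 5.90 to 6.91 on KO arrays. Over the 21 higher probes it was 5.79 to 6.50, 6.92 and 7.25, and 7.37 to 8.03.

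**Figure D4:**
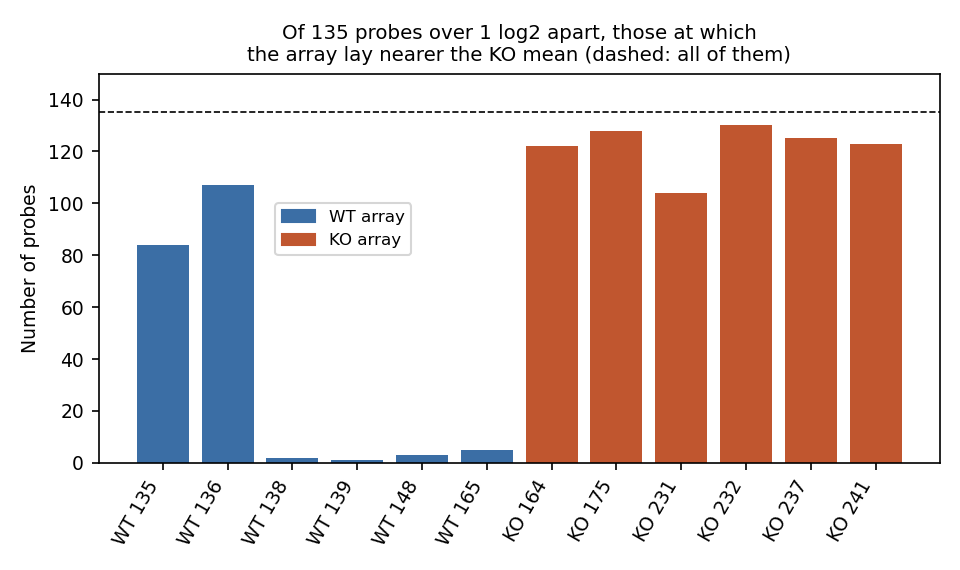
For each fat array, the bar gives at how many of the probes over 1 log2 apart (114 lower and 21 higher, dashed line at their sum) the array lay nearer the KO mean than the WT mean. Fat_WT_135 and Fat_WT_136 reach 84 and 107, the other WT arrays 1 to 5, and KO arrays 104 to 130. The probes were chosen by the difference on these same arrays.

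The probes with the strongest weights on the first component show the pattern at its clearest, and were chosen for it. ILMN_1243403 stood at 10.81 to 12.10 on the 4 other WT arrays, at 8.23 on Fat_WT_135 and 6.70 on Fat_WT_136, and at 4.83 to 7.43 in KO. Its KO minus WT was -4.14 (SE 0.84), or -3.10 with uncorrected signals, with 4 of 6 KO arrays above background, and it missed the threshold (limma adjusted p = 0.0721). ILMN_1231420 stood at 12.16 to 13.11, at 9.57 and 9.51, and at 8.86 to 9.34 in KO save for Fat_Surf1_KO_232 at 4.85. On the opposite side, ILMN_2699477 stood at 4.64 to 5.23 on the 4 other WT arrays, at 7.39 and 8.09 on Fat_WT_135 and Fat_WT_136, and at 7.33 to 9.76 in KO. ILMN_2738082 stood at 6.65 to 7.93, at 8.89 and 9.13, and at 8.81 to 9.96. ILMN_1224546 did not share the pattern so clearly: the WT arrays lay at 4.84 to 6.86 and the KO arrays at 6.96 to 10.96. Fat_WT_135 stood near the top of the WT range at 6.68, but Fat_WT_136 stood at 5.73.

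The number of probes past the threshold turned on these arrays. Without Fat_WT_136 it was 426, without Fat_WT_135 it was 92, and with both left out 1034 probes passed, 605 lower and 429 higher in KO. Arrays chosen because they lie with KO raise the count by their removal, so these counts describe the dependence and are no better estimate. Leaving out any of the other 10 arrays gave 1 to 9 probes. Over all tested probes the WT spread exceeded the KO spread only slightly, with a larger SD in WT at 54.2% of probes and a median ratio of WT to KO SD of 1.06. Among the 1821 probes with an unadjusted p under 0.05 the ratio was 1.20.

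The livers that share a number with these fat samples also stood apart. Among the 12 livers with numbers below 300, the first component of liver held 31% of the variance and placed Liver_WT_135 at -41.1 and Liver_WT_136 at -26.9, with the next at -15.6 (Liver_Surf1_KO_237) and the others at -1.10 to 18.4. When the probe weights of the first component of fat were applied to these livers, Liver_WT_135 and Liver_WT_136 had the highest scores, 4.32 and 3.02, and the others ranged from -3.48 to 2.26. In brain cortex they did not stand together: Brain_WT_135 was at 44.9 and Brain_WT_136 at -26.8 on the first component of the 9 arrays below 300. The fat weights did not separate genotypes in liver (KO minus WT -1.23, n = 6 and 6, exact permutation test, two-sided p = 0.385) or brain (0.54, n = 4 and 5, exact permutation test, two-sided p = 0.349), and the adjusted p over these 2 exact tests was 0.385 for each.

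Whether KO acted otherwise in fat than elsewhere was tested as an interaction in a limma fit over all 44 arrays. That fit shares its estimate of spread over the 3 tissues, so its p-values can be too small for probes that vary mostly in fat. Between fat and liver the difference itself passed for 54 of 10053 probes (0.537%), and between fat and brain for 18 of 10473 (0.172%). With the sample number as a fixed block, over the 12 numbers shared with liver and the 9 shared with brain, 131 and 0 probes passed. Thus none of the fat minus brain calls held in that fit. It used fewer arrays than the main fit, so the loss of calls does not by itself show a changed difference. The KO effect was the more negative in fat at 41 of the 54 and 12 of the 18. In fat the effect was the larger at 46 of the 54, and it had the opposite sign to liver at 45. Of the 54, 0 passed within liver. Selection by the difference between tissues favours opposite signs, so no opposite effect in liver is shown. Both comparisons use the same fat arrays, so their probes are not independent; 3 passed in both, ILMN_1243722, ILMN_1249755 and ILMN_2604282, named here after their values were seen.

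ILMN_1240943 had the smallest p against liver. It differed by -2.54 in fat and by 0.68 in liver (SE 0.24), where its level was 6.68 ± 0.65 (SD, n = 8) in WT and 7.36 ± 0.33 (SD, n = 8) in KO. The difference between tissues was -3.22 (SE 0.43, limma adjusted p = 1.78e-05). For ILMN_2431046 the liver effect was 0.06 (SE 0.23) and the difference -3.66 (SE 0.51, limma adjusted p = 2.44e-05), and liver levels were low, at 5.53 in WT. For ILMN_1240943 and ILMN_2431046 the SE of the difference was below that of the effect in fat alone (0.46 and 0.58), through the shared spread. ILMN_1243722 was detected on all arrays of all 3 tissues. Its KO minus WT was 0.08 (SE 0.10) in liver and -0.02 (SE 0.09) in brain, and the difference from fat was -1.18 (SE 0.17, limma adjusted p = 2.44e-05) and -1.07 (SE 0.17, limma adjusted p = 0.000623).

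ILMN_2745370 and ILMN_2614421 had differences of opposite sign in fat and brain, and neither passed within brain (limma adjusted p = 0.999 for each). ILMN_2745370 differed by 0.86 in fat (SE 0.18), where KO and WT ranges did not overlap, and by -1.17 in brain (SE 0.31), a difference of 2.02 (SE 0.37, limma adjusted p = 0.0065). ILMN_2614421 differed by -1.80 in fat and 0.15 in brain (SE 0.19), a difference of -1.94 (SE 0.36, limma adjusted p = 0.0065), with 3 of 6 KO fat arrays above background. ILMN_2629657 differed by -0.46 in liver (SE 0.27), with a difference from fat of -1.60 (SE 0.34, limma adjusted p = 0.0112), and 0 of 16 brain arrays detected it. For ILMN_1240702 KO minus WT was 1.17 in fat, 0.77 in liver (SE 0.22) and 1.17 in brain (SE 0.39), and neither of the latter passed, with limma adjusted p values of 0.336 and 0.999. In brain its levels were 5.89 to 7.74 in WT and 8.11 to 8.88 in KO on arrays numbered below 300, and 8.74 to 9.02 in WT and 8.63 to 9.22 in KO on the others, so those groups overlapped. Its difference between tissues was not past the threshold, at 0.41 (SE 0.45, limma adjusted p = 0.973) and 0.01 (SE 0.45, limma adjusted p = 0.999). ILMN_2721357 was detected on 0 of 16 liver and 0 of 16 brain arrays and could not be compared.

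**Figure D5:**
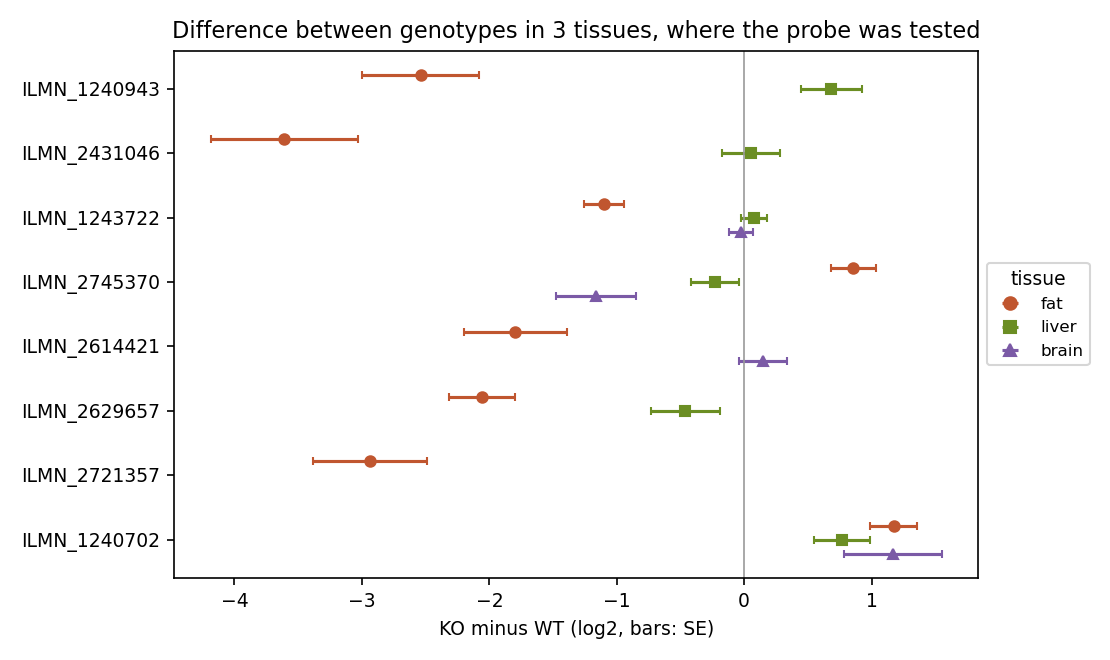
KO minus WT in log2 with SE bars for the probes of smallest interaction p and the probes past the threshold in fat, in fat, liver and brain where the probe was tested. The fat values lie from -3.61 to 1.17, and the values of ILMN_1240702 are 0.77 in liver and 1.17 in fat and in brain, of which only that in fat passed the test.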

How the data were processed

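Per the labels' protocols, biotinylated cRNA from total RNA was read in 1 colour on Illumina beadchips. The authors deposited a non-normalized intensity per probe and array, without background subtraction (62.7 to 48285.1 on fat arrays), and beside it a detection score named as a p-value. This deposited score rose with the signal (rank correlation at least 0.969 on each fat array) and was taken to be 1 minus a detection p. The deposited table of processed log2 values, for which the submitters' processing notes name lumi, served as an alternative. The sources used here do not give its transform, nor a slide or scan date, so no batch was examined.

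With limma 3.58.1 (R 4.3.3, statmod 1.5.0 for blocks) intensities were background corrected by normexp from the detection p, an offset of 16 was added, and values were quantile normalized within each tissue on the log2 scale. A probe was detected at a detection p under 0.05. Probes detected on at least 6 fat arrays (8 in liver and brain) were tested as separate features with lmFit and eBayes (intensity trend, two-sided, Benjamini-Hochberg, threshold 0.05). Deposited names were used only for the tissue check, the Surf1 probes and an alternative that keeps a single probe per name. Interactions were contrasts in a fit with 6 group means. The scripts were tested on simulated data. All signal columns differed from each other.

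The members, lists and tests were chosen with earlier results of these data known. Named probes were those past the threshold, filled to 8 a direction by p, the 3 of smallest p per interaction, the 3 highest and 3 lowest weights on the first component, probes detected in 1 genotype only, and the probes annotated to Surf1. The alternatives were other background correction, normalization and filters, array weights, no trend, the sample number as covariate, 1 fit over 44 arrays, blocks and leaving out arrays.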

Additional observations from a re-analysis of the deposited data

Results flagged for a closer look

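In 4 of the 60 sets of 6 fat arrays examined, the highest or lowest array lay far from the other 5: its gap to the nearest, divided by the whole range, exceeded Dixon's critical value, which chance does in about 1 set in 20. Fat_Surf1_KO_237 stood at 5.97 for ILMN_2629657, with the other KO arrays at 4.77 to 5.20, and at 7.17 for ILMN_1216723, with the others at 7.52 to 7.72. It was also the array that stood alone on the second component. Fat_Surf1_KO_232 stood at 4.85 for ILMN_1231420, with the others at 8.86 to 9.34. Fat_Surf1_KO_175 stood at 5.77 for ILMN_2899133, with the others at 5.03 to 5.29.

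The KO effect differed between tissues, by the interaction test, for 13 results on named probes. The 3 of smallest p per interaction were named for this test, so their passing was fixed by the choice. The other probes were named for their p or weight on the same fat arrays. Over all tested probes 0.537% passed against liver and 0.172% against brain. In fat minus liver it was -3.22 for ILMN_1240943, -3.66 for ILMN_2431046, -1.18 for ILMN_1243722, -1.60 for ILMN_2629657, -1.23 for ILMN_2759177, 1.01 for ILMN_1248959, 2.72 for ILMN_2699477 and 2.62 for ILMN_1224546. The last pair were bright in liver in both genotypes, at 10.52 and 13.76 in WT, and far dimmer in fat. In fat minus brain it was -1.07 for ILMN_1243722, 2.02 for ILMN_2745370, -1.94 for ILMN_2614421, 2.24 for ILMN_2738082 and -3.03 for ILMN_1231420.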

How the results depend on the processing

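The count of 5 probes in fat was 9 with detection on every fat array and 9 without the intensity trend, 3 with a single probe per deposited name, 354 in the fit over 44 arrays, 1 with the sample number as covariate and 1034 with Fat_WT_135 and Fat_WT_136 left out (chosen after seeing the data). Detection on every fat array left ILMN_2629657 and ILMN_2721357 of the 5 untested. A single probe per name left out ILMN_2629657 and ILMN_2431046, so these counts are not of the same probes. Leaving out each array gave counts of 1 to 426. With the number as covariate none of the 5 probes passed, with adjusted p values of 0.303 to 0.514 and differences of the same sign; KO numbers were nearly all above WT numbers, so number and genotype can hardly be told apart. Differences of dim probes shrank without background correction, which limits their size. The first component differed by 1.39 SD of the scores (its sign is set to be positive), and by 1.37 to 1.87 under 6 alternatives and 1.29 to 1.65 when an array was left out. The median SD ratio was 0.998 without the filter on detection, 0.968 with both arrays left out and 0.974 to 1.12 over single arrays. The 96 probes without overlap became 1056 with both left out and 107 to 297 over single arrays. The detected share differed by 0.10, 0.0406 and 0.253 percentage points, the opposite sign, without Fat_WT_139, Fat_Surf1_KO_175 and Fat_Surf1_KO_241 (range -0.672 to 0.253).

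Fat minus liver gave 99 probes without the filter on detection, 173 on the authors' processed values, 334 with both arrays left out and 24 to 154 over single arrays. For fat minus brain these were 75, 54, 208 and 6 to 77. With the sample number as a random replicate block the counts were 78 and 23, and with a fixed replicate block over numbers in both tissues 131 and 0, where the fat minus brain values were -1.05 for ILMN_1243722 and 2.04 for ILMN_2745370 (limma adjusted p = 0.701 for both) and -2.17 for ILMN_2614421 (limma adjusted p = 0.638). Deviations from group means of fat and liver samples with the same number correlated at -0.22 to 0.41 (median 0.10, 12 numbers), and fat and brain -0.13 to 0.36 (median 0.01, 9 numbers). These values do not settle whether the numbers pair samples, and the main fits used no pairing. The random block kept all 54 and all 18 probes; 4 of 12 fat samples correlated best with the liver of their own number and 2 of 9 with the brain. Of 675 values of single probes under alternatives, 0 reversed, 548 kept their side of the threshold, 86 came to pass and 41 no longer passed. These probes were named for their p, weight or detection on the same arrays, and the alternatives reuse most or all of those. The absence of reversals is therefore no separate support.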
